A study of Arabidopsis thaliana with 9 samples.

Results

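A set of 126 Arabidopsis thaliana genes was higher after 48 h in silver nitrate than at 0 h and lower again at 72 h. It held growth genes of the SAUR family, late genes of anthocyanin synthesis, defence genes linked to salicylic acid, small heat shock proteins and genes of starch and sugar metabolism. The genes were chosen by 2 thresholds from 19875 loci of the nuclear chromosomes whose probe was well above background on all 9 arrays. The mean log2 signal of 3 arrays had to be higher by at least 1 at 48 h than at 0 h, and lower by at least 0.8 at 72 h than at 48 h. These 2 differences chose the genes, so for the members they and their sum, 72 h minus 0 h, are given below as a description without a test.

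Silver ions bind to thiol groups and block the perception of ethylene, and a plant cell exposed to a toxic metal makes antioxidant, chaperone and defence proteins. SAUR proteins (small auxin up RNA) are short proteins whose transcripts respond fast to auxin and turn over fast, and several of them promote cell expansion by keeping the proton pump of the plasma membrane active. Anthocyanins are red flavonoid pigments of the vacuole, made by a short branch of the flavonoid pathway that MYB factors switch on under sugar, light and nutrient stress. Salicylic acid and pipecolic acid are signals of defence against biotrophic pathogens.

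All plants were whole 3-week seedlings of the accession Col-0, germinated on agar and then shaken in liquid medium with sucrose under continuous light. Silver nitrate was added to the medium at 0.1 mM, and washed plants were collected when it was added (0 h) and after 48 h or 72 h, with 3 arrays at each time. The submitters describe 3 independent experiments per time with different plants. The plants at 0 h, sampled when silver was added, were the only untreated state, so silver and time in culture cannot be told apart. In whole seedlings, a loss of cells of one type and less RNA per cell cannot be told apart either.

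RNA was labelled with the dye Cy3 and hybridised to Agilent arrays with probes for 25665 loci. Replicate 1 of every time shared slide 1 and replicate 2 shared slide 2. Replicate 3 of 0 h and 48 h lay on slide 3, and replicate 3 of 72 h lay on slide 4. Slides 1 and 2 shared scan 1, slide 3 was in scan 2 and slide 4 in scan 3. Before scaling, the 75th percentile of the signal was 1583 and 1966 on slide 3, and 2758 to 3681 on the other arrays. Across 21042 genes tested, 2968 were higher and 3330 lower at 48 h than at 0 h (limma, adjusted p under 0.05). Between 72 h and 48 h no gene passed an adjusted p of 0.05. There the smallest adjusted p was 0.0517, and 1941 genes had an unadjusted p under 0.05. Markers of other tissues moved over the same times: 13 of 15 photosynthesis genes and 8 of 11 root hair genes were called lower at 48 h, while 6 of 8 measured embryo and seed genes were called higher. None of these markers was a member. All 8 embryo and seed genes had a positive 48 h minus 0 h and a negative 72 h minus 48 h difference, and their summed signal was 11.4% to 14.4% of the array's 75th percentile at 0 h, 93.6% to 208% at 48 h and 29.9% to 71.6% at 72 h. Of them the seed storage albumins SESA5, with 8.29 and -3.47, SESA2, with 6.09 and -2.63, and SESA1, with 2.84 and -1.52, met both thresholds, but their probes were above background on only 6, 7 and 5 arrays. The smallest differences of the embryo and seed genes were 0.007 and -0.02. This marker set thus took the direction of the members, and its part in their values was not tested. Xylem and secondary wall markers took it too: of 13 tested, with 0 members, 9 were called higher and 0 lower at 48 h. All 13 had their highest group mean at 48 h, as had 5269 of 21042 genes tested. Their median differences were 0.70 and -0.26, and their part was not tested either.

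Signals below are given as a percentage of the 75th percentile of all gene probes on the same array, for replicates 1, 2 and 3 in that order. A level can be compared between arrays for one gene but not between genes, since each probe has its own brightness. Where a mean level is given, it is the geometric mean of 3 arrays. Differences are on the log2 scale, with the standard error (SE) of the fit.

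Over the 126 members the median log2 difference was 2.07 for 48 h minus 0 h, -1.10 for 72 h minus 48 h and 0.69 for 72 h minus 0 h. Over all 19875 loci the same medians were 0.01, -0.01 and 0.00. With 1 array per time within slide 1, the members' medians were 2.13, -1.63 and 0.24 in the same order, and within slide 2 they were 2.06, -0.93 and 0.94. At 48 h, 65 members were more than 4-fold and 27 more than 8-fold above 0 h. Of the members, 102 were called higher at 48 h than at 0 h, where 14.1% of all genes tested were. For 72 h against 48 h, 0 members were called, where 0% of all genes were, and 80 members were lower at an unadjusted p under 0.05, where 5.85% were. At 72 h, 34 members were called higher than at 0 h, where 16.7% of all genes were, and 0 were called lower, where 19.6% were. With the arrays of replicate 2 left out, 45 members were called higher at 48 h, where 4.70% of all genes were, and 14 at 72 h against 0 h, where 6.60% were. With those of replicate 3 left out, 50 were at 48 h, where 6.12% of all genes were, and 14 at 72 h, where 8.88% were. Without replicate 1, 57 were called at 72 h, where 15.0% of all genes were, and without 72 h replicate 2 or 72 h replicate 3 alone 17 and 19 were, where 12.6% and 11.6% were. With the replicate number as a block, 108 members were called at 48 h, where 15.3% of all genes were. Of these 10 had not been called without the block, among them IAA5, HSP23.6-MITO, SAUR29 and APX2, while 4 lost the call, GolS7, EXPB3, BGLU47 and AT1G64590. The differences for 48 h minus 0 h and 72 h minus 48 h share the 48 h arrays, and the rule used both, so nothing is read from these counts.

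**Figure D1:**
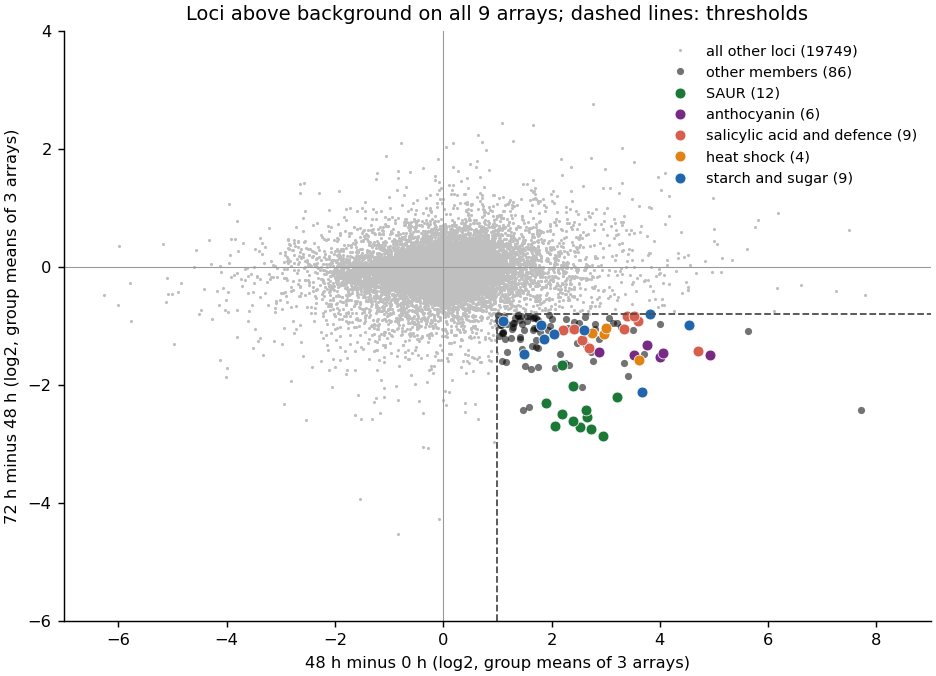
Log2 difference of 48 h minus 0 h (horizontal) against 72 h minus 48 h (vertical) for 19875 loci, each from group means of 3 arrays. Grey points are the other loci and coloured points are members, with the number of genes in each group in the legend. The members fill the corner below and to the right of the dashed thresholds, and the 12 SAUR genes span 72 h minus 48 h differences of -2.86 to -1.66 there, together with some members of other groups.

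The thresholds cut through a continuous range. PILS5, an auxin carrier of the endoplasmic reticulum, was just inside both, with 1.01 and -0.81. GolS7 was the nearest inside the second threshold, at -0.80. Just outside were RLP29, at 0.99 and -1.46, and ASG4, at 2.69 and -0.799. The number of members also depended on single arrays. Without 72 h replicate 1 the rule gave 92 loci, 77 of them members, and without all arrays of replicate 2 it gave 202, of which 114 were members. 2 further loci, AT3G53860 and AT4G35380, met the rule only through 1 spot marked as an outlier by the scanner software, and were left out.

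The arrays of a time did not overlap with their neighbours in time for 70 of the 126 members: all 3 arrays at 48 h were above all arrays at 0 h and at 72 h, where this held for 1.82% of all loci. The 48 h arrays were above all 72 h arrays in 76 members, where 9.34% of all loci had this order. All 72 h arrays were above all 0 h arrays in 37 members, where 24.2% of all loci did. Within each replicate number, 48 h was above both other times in all 3 replicates for 109 members, where this held for 5.56% of all loci. Another 14 members had this peak in 2 replicate numbers and 3 in 1. The exceptions include SAG29, IRT1, RGF9, NF-YB5, AT1G24580 and AT5G55270, in which 72 h replicate 3 reached or passed 48 h replicate 3.

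To read differences that had not entered the thresholds, the rule was applied to 2 of the 3 replicate numbers and the third was then read. The background filter still used every array, so the left-out replicate took part in it. The other loci, given for comparison, were not matched for brightness or spread. The median signal at 0 h was 7.14% over the members and 84.8% over all loci. The median SD at 72 h was 0.72 and 0.15 log2. The shares below are thus a description without a test. Chosen without replicate 1, 130 loci met the rule, and 83.8% of them had 48 h above both 0 h and 72 h in replicate 1, where 30.8% of all other loci did. Chosen without replicate 2, the same held for 70.8% of 202 loci, where 25.9% of other loci did. Chosen without replicate 3, it held for 75.3% of 154 loci, where 24% of other loci did. For the later difference alone, 72 h was below 48 h in replicates 1, 2 and 3 in 89.2%, 73.3% and 79.9% of the chosen loci. Of other loci 50.5%, 51.1% and 52.0% had this. The left-out replicate met both thresholds in 45.4%, 29.7% and 35.7% of the chosen loci for replicates 1, 2 and 3, where 1.54%, 0.427% and 0.979% of other loci did. Its median for 72 h minus 48 h in the chosen loci was -1.0, -0.39 and -0.62, smaller in size than the -1.08, -1.15 and -1.16 in the replicates that chose them.

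**Figure D2:**
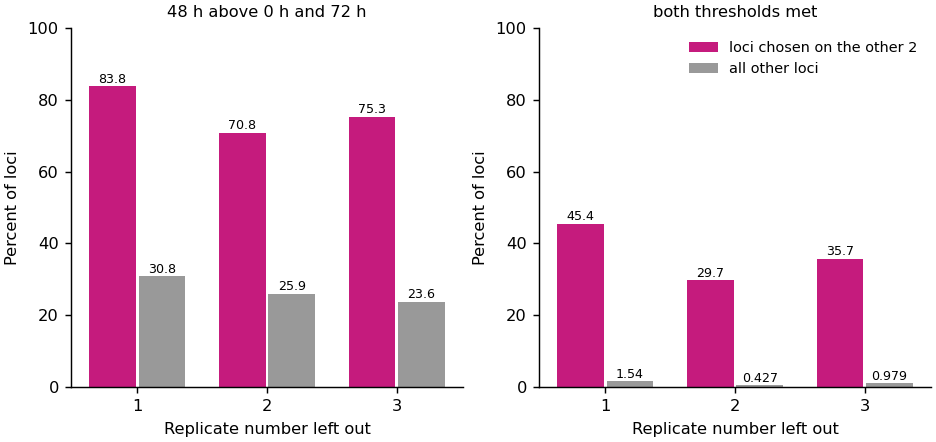
Percent of loci (vertical) that were higher at 48 h than at 0 h and 72 h (left panel) or met both thresholds (right panel) in the replicate number named on the horizontal axis. Magenta bars are loci chosen on the other 2 replicate numbers and grey bars are all other loci; between 70.8% and 83.8% of the chosen loci peaked at 48 h in the replicate left out.

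The SAUR family gave 12 members: SAUR19 to SAUR24, SAUR29, SAUR63 to SAUR66 and SAUR15. Their median log2 difference was 2.46 for 48 h minus 0 h and -2.51 for 72 h minus 48 h, with 0.04 for 72 h minus 0 h. That last median rests on 1 array: without 72 h replicate 1 it was 0.67. SAUR19, SAUR21, SAUR24, SAUR65 and SAUR66 were then called higher at 72 h than at 0 h, where 13.6% of all genes tested were. In all 12 the 48 h arrays lay above all arrays at 0 h and at 72 h, as in 55.6% of all members and 1.82% of all loci. The rule favours this order, so it is a description.

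SAUR19 (AT5G18010), whose protein promotes cell expansion, measured 3.19%, 2.19% and 2.64% at 0 h, 16.5%, 18.3% and 18% at 48 h and 1.07%, 3.89% and 4.34% at 72 h. All 48 h arrays were near one level, and 72 h replicate 1 lay below every 0 h array. Its differences were 2.73 ± 0.47 at 48 h minus 0 h and -2.74 ± 0.47 at 72 h minus 48 h (SE, n = 3 each). SAUR21 (AT5G18030) measured 2.01%, 3.54% and 3.88% at 0 h, 20.4%, 26.1% and 23.7% at 48 h and 0.913%, 6.02% and 6.0% at 72 h. It had the largest difference of any member at 72 h minus 48 h, -2.86 ± 0.66. SAUR20 (AT5G18020) measured 2.61%, 4.42% and 3.29% at 0 h, 19.1%, 23.2% and 16.5% at 48 h and 0.873%, 5.28% and 5.60% at 72 h.

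These genes showed one order of arrays, with the 72 h replicate 1 array lowest of all 9. SAUR22 (AT5G18050) measured 11.7%, 15.3% and 16.9% at 0 h, 69.9%, 75.4% and 83.4% at 48 h and 5.0%, 19.6% and 19.9% at 72 h. SAUR23 (AT5G18060) measured 7.79%, 9.26% and 9.29% at 0 h, 33.4%, 29.5% and 34.7% at 48 h and 3.59%, 8.73% and 9.15% at 72 h. SAUR24 (AT5G18080) measured 3.32%, 4.89% and 4.89% at 0 h, 23.7%, 32.8% and 25.6% at 48 h and 1.42%, 8.74% and 8.11% at 72 h. In SAUR22 to SAUR24 the 48 h arrays again stood apart, and replicate 1 at 72 h was the only 72 h array clearly below 0 h.

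SAUR63 to SAUR66 lie in a second cluster on chromosome 1 and also act in organ elongation. SAUR65 (AT1G29460) measured 1.19%, 1.65% and 1.97% at 0 h, 17.7%, 17.2% and 10.1% at 48 h and 1.33%, 4.41% and 5.33% at 72 h. With 3.21 ± 0.50 it had the largest 48 h minus 0 h difference of the 12, and at 72 h it remained 1.00 ± 0.50 above 0 h. SAUR63 (AT1G29440) measured 5.64%, 11.0% and 9.86% at 0 h, 42.4%, 45.9% and 30.2% at 48 h and 2.06%, 11.8% and 13.8% at 72 h. SAUR64 (AT1G29450) measured 2.73%, 4.94% and 5.91% at 0 h, 27.7%, 29.3% and 23.2% at 48 h and 1.78%, 7.23% and 9.40% at 72 h. In both, 72 h replicate 1 was the lowest array of all, and replicates 2 and 3 were slightly above 0 h. SAUR66 (AT1G29500) measured 4.8%, 7.62% and 5.73% at 0 h, 41.4%, 34.9% and 20.9% at 48 h and 3.29%, 10.7% and 13% at 72 h, with differences of 2.39 ± 0.50 and -2.01 ± 0.50.

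Outside these clusters, SAUR29 (AT3G03820) measured 4.06%, 9.77% and 11.8% at 0 h, 31.0%, 35.9% and 30.7% at 48 h and 1.44%, 10.1% and 8.68% at 72 h. Its 72 h minus 0 h difference was -0.63 ± 0.71, the most negative of the 12. SAUR15 (AT4G38850), one of the first auxin-induced genes described in this species, measured 0.593%, 1.81% and 3.19% at 0 h, 6.63%, 6.62% and 7.49% at 48 h and 2.02%, 2.16% and 2.38% at 72 h. Unlike the others it had 3 close arrays at 72 h, and its scatter was at 0 h.

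**Figure D3:**
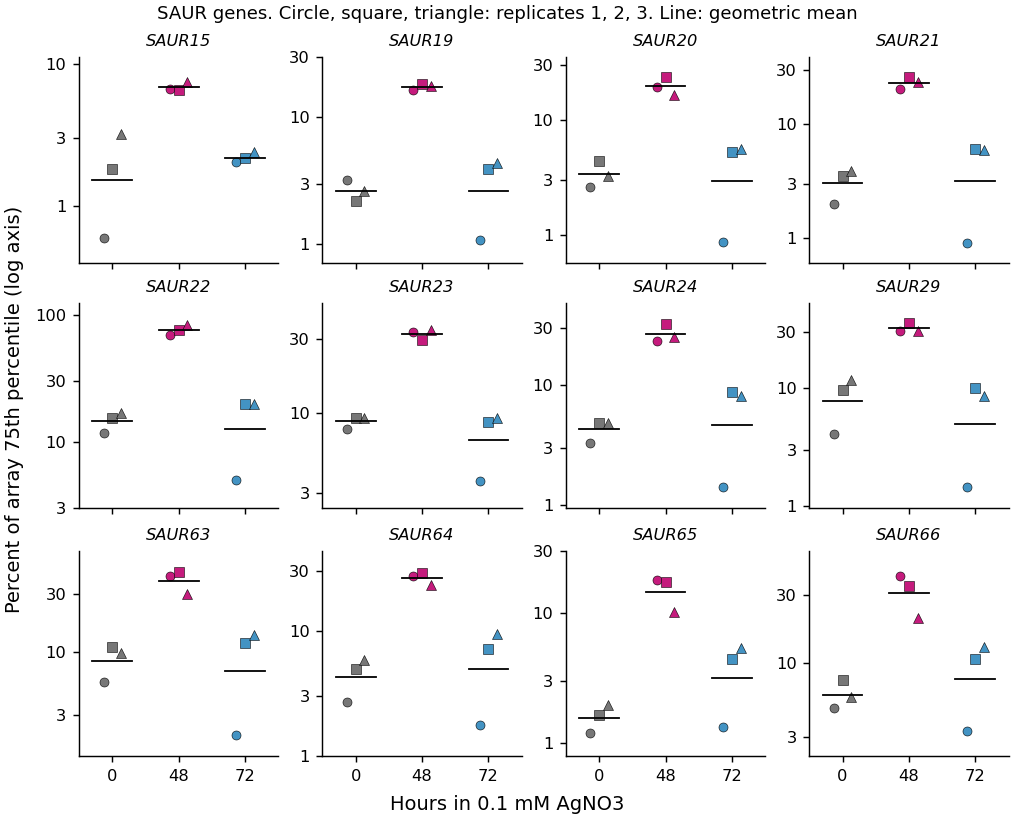
Signal of the 12 SAUR members in each array, as percent of the array's 75th percentile on a log axis, against hours in silver nitrate. Circles, squares and triangles are replicates 1, 2 and 3 and lines are geometric means. All 48 h points lie above all other points, and in every panel the circle at 72 h is the lowest of that time.

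The size of the difference depended on the replicate. The median over the 12 for 72 h minus 48 h was -3.96 in replicate 1, on slide 1, -1.95 in replicate 2, on slide 2, and -1.65 in replicate 3, across slides 3 and 4. For 48 h minus 0 h the medians were closer, at 2.92, 2.35 and 2.14. For 72 h minus 0 h replicate 1 had -1.18, while replicates 2 and 3 had 0.42 and 0.65. The 72 h replicate 1 array was the lowest of its time for 12 of 12 SAUR genes, for 71.4% of all members and for 37.3% of all loci. What sets that array apart was not tested.

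The SAUR genes of a cluster are close tandem copies, so a probe may take up a neighbour's transcript and the 12 are not independent readings. By Euclidean distance over the 9 arrays after centring each gene, the loci most like SAUR19 among all 19875 were SAUR22, SAUR24, SAUR20, SAUR64, SAUR21 and SAUR23, at 0.84 to 1.31. 5 more SAUR genes met both thresholds but had probes above background on fewer than 9 arrays, and were picked out here after their values were seen. For SAUR62 and SAUR28, all 3 arrays at 48 h and 0 of those at the other times were well above background. SAUR68, SAUR26 and SAUR10 were above it on 8, 8 and 6 arrays.

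The whole family was mixed. Of 62 SAUR genes tested, a list drawn by name after the values were seen, 27 were called higher and 9 lower at 48 h, and 26 were not called. Their median 48 h minus 0 h was 0.73, and 0.24 over the 50 that were not members, beside 0.01 over all genes tested. Their median 72 h minus 48 h was -0.53, and -0.43 over those that were not members, beside -0.01 over all genes tested, and 50 of the 62 had a negative value. In 36 of the 62 the group mean was highest at 48 h. SAUR48 fell by 4.97 and SAUR79 fell by 3.52 on the log2 scale at 48 h (adjusted p = 1.29e-05 and 3.11e-05, limma). SAUR36 rose at 48 h and was not lower at 72 h, with 1.97 ± 0.31 and, for 72 h minus 48 h, 0.22 ± 0.31. In a list of 14 auxin and growth genes only IAA5 was a member, 2 were called higher at 48 h and 0 lower. With a replicate block IAA5, IAA2 and SAUR68 were also called, which gave 5. The first 2, GH3.3 and BRU6, code for enzymes that conjugate auxin to amino acids, and were higher by 3.82 ± 0.73 and 3.05 ± 0.46 at 48 h and by 3.5 and 3.43 at 72 h.

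Late anthocyanin genes formed the second group. Its 6 members were PAP1, DFR, LDOX, UF3GT, AT5MAT and GSTF12, with a median of 3.88 for 48 h minus 0 h, -1.47 for 72 h minus 48 h and 2.45 for 72 h minus 0 h. All 6 peaked at 48 h in every replicate number, yet only 1 of them, AT5MAT, had 48 h arrays above all 72 h arrays. In the others 72 h replicate 2 was above the lowest 48 h array.

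PAP1 (AT1G56650), the MYB factor that activates the branch, measured 0.832%, 2.2% and 2.0% at 0 h, 17.1%, 75.5% and 80.0% at 48 h and 11.3%, 35.6% and 11.7% at 72 h. Replicate 1 stood below replicates 2 and 3 at 48 h, and 72 h replicate 2 passed 48 h replicate 1. The differences were 4.93 ± 0.70, -1.49 ± 0.70 and, for 72 h minus 0 h, 3.44 ± 0.70. DFR (AT5G42800), which reduces dihydroflavonols, measured 6.89%, 5.80% and 10.5% at 0 h, 92.5%, 188% and 111% at 48 h and 18.1%, 98.9% and 51.4% at 72 h. Every 72 h array was above every 0 h array, and replicate 2 was highest at both later times. LDOX (AT4G22880), the next enzyme, measured 2.43%, 3.33% and 6.65% at 0 h, 39.9%, 87.3% and 38.3% at 48 h and 8.31%, 47.0% and 21.5% at 72 h. The adjacent locus AT4G22870 took the same course, with means of 5.05% at 0 h, 65.9% at 48 h and 23.8% at 72 h. Whether the probes of these neighbours read the same transcripts was not tested.

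The decorating and transport genes followed. AT5MAT (AT3G29590), an anthocyanin malonyltransferase, measured 0.648%, 0.839% and 2.09% at 0 h, 12.4%, 24.9% and 14.9% at 48 h and 2.75%, 10.4% and 6.75% at 72 h. UF3GT (AT5G54060), which adds xylose to the anthocyanin glucoside, measured 4.70%, 3.83% and 4.68% at 0 h, 22.6%, 60.2% and 24.4% at 48 h and 5.98%, 27.2% and 10.2% at 72 h. In UF3GT 72 h replicate 1 had come near 0 h and replicate 2 had not, with 1.43 ± 0.55 left at 72 h minus 0 h. GSTF12 (AT5G17220), needed to bring anthocyanin into the vacuole, had means of 9.29% at 0 h, 107% at 48 h and 38% at 72 h.

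The early enzymes of the same pathway were not called higher at 48 h. Of 16 pathway and regulator genes tested, a list added after values were seen, 6 were members and 2 more were called higher at 48 h: the regulators MYB113, at 4.74 ± 1.30, and TT8, at 2.45 ± 0.79, whose probes were above background on 8 arrays each. TT4, chalcone synthase, measured -0.22 ± 0.59 at 48 h minus 0 h (adjusted p = 0.821) and fell by 1.95 at 72 h against 0 h (adjusted p = 0.0309, limma). F3H, TT7, TT5 and FLS1 had 48 h minus 0 h differences of -0.53, -0.97, -0.13 and -1.14, none called. All 5 early genes were called lower at 72 h than at 0 h. For 72 h minus 48 h, 14 of the 16 list genes had a negative difference, with a median of -1.07. Over the 10 that were not members the median was -0.72, beside -0.01 over all genes tested. Of 19 genes of the wider phenylpropanoid list, 3 were members, and CCOAMT, which methylates caffeoyl-CoA for lignin and related compounds, was higher by 3.52 ± 0.50 at 48 h and 5.30 ± 0.50 at 72 h against 0 h. The loci nearest to PAP1 over the 9 arrays were not members: TPS04, BGL2 and MBP1, at distances of 1.59, 1.91 and 1.93.

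Defence genes linked to salicylic acid formed the third group. How their share left at 72 h ranked among the groups depended on single arrays, as given below. The 9 members were ALD1, ICS2, NIMIN1, PCC1, PNP-A, AED1, NUDT6, CRK4 and ANK, with medians of 3.34 for 48 h minus 0 h, -1.06 for 72 h minus 48 h and 2.29 for 72 h minus 0 h. In all 9 the 48 h arrays were above all arrays at both other times, as in 55.6% of all members and 1.82% of all loci. In this group 72 h replicate 1 was not low: it was the highest 72 h array in 6 of 9 genes.

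ANK (AT5G54610, also BDA1), an ankyrin-repeat protein of immunity, measured 9.43%, 12.1% and 5.58% at 0 h, 243%, 303% and 152% at 48 h and 119%, 84.4% and 56.9% at 72 h. The 3 times were fully separate, with 4.70 ± 0.38 at 48 h minus 0 h and -1.43 ± 0.38 at 72 h minus 48 h. NIMIN1 (AT1G02450), which binds the salicylic acid receptor NPR1, measured 10.7%, 8.81% and 6.23% at 0 h, 115%, 103% and 87.8% at 48 h and 33.3%, 71.5% and 65.3% at 72 h. Here too the times did not overlap, and 2.68 ± 0.31 remained at 72 h. ALD1 (AT2G13810), which makes the precursor of pipecolic acid, measured 7.84%, 2.41% and 1.47% at 0 h, 19.3%, 17.5% and 22.1% at 48 h and 9.73%, 6.26% and 6.96% at 72 h. Its 0 h replicate 1 array was above 2 of the 3 arrays at 72 h, so only 48 h was separate.

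ICS2, the minor isochorismate synthase of salicylic acid synthesis, had means of 3.83% at 0 h, 40.4% at 48 h and 22.7% at 72 h. PNP-A, a secreted natriuretic peptide, had 19.4% at 0 h, 223% at 48 h and 126% at 72 h. AED1, an apoplastic aspartyl protease, had 31.7% at 0 h, 321% at 48 h and 155% at 72 h. PCC1, named for its response to pathogens and the clock, had 59.8% at 0 h, 352% at 48 h and 149% at 72 h. The other two genes, the Nudix hydrolase NUDT6 and the receptor-like kinase CRK4, were higher by 2.22 and 2.42 at 48 h against 0 h and differed by -1.07 and -1.06 between 72 h and 48 h.

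The wider list was mixed between 72 h and 48 h. Of 18 genes on the list of salicylic acid and pathogenesis-related genes, NIMIN1 and ALD1 were members. In the whole list 9 were called higher and 3 lower at 48 h, and its 72 h minus 48 h differences ran from -1.38 to 1.2, with a median of 0.05, beside -0.01 over all genes tested. BGL2 (PR2), a glucanase, was higher by 4.52 ± 0.61 at 48 h and 4.13 ± 0.61 at 72 h against 0 h, and PBS3, an enzyme of salicylic acid synthesis, by 3.62 ± 0.41 and 3.49 ± 0.41. AIG1 had 3.48 ± 0.47 and 3.19 ± 0.47 (all 6 with an adjusted p of at most 0.00113, limma). Their 72 h minus 48 h differences were -0.39, -0.14 and -0.29.

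Small heat shock proteins, chaperones that hold unfolding proteins in solution, gave 4 members that the reference names. AT1G53540, written on the same list but without a symbol in the reference, was also a member, with 2.81 ± 0.74 and -1.04 ± 0.74. HSP21 (AT4G27670), the plastid form, measured 0.705%, 1.04% and 2.68% at 0 h, 5.04%, 15.3% and 47.0% at 48 h and 1.99%, 9.66% and 7.22% at 72 h. Replicate 3 was highest and replicate 1 lowest at 0 h and 48 h, and the 3 arrays at 48 h were far apart. Its differences were 3.62 ± 0.89 and -1.57 ± 0.89. HSP17.6A (AT5G12030) measured 2.07%, 2.92% and 4.42% at 0 h, 12.4%, 24.4% and 45.2% at 48 h and 6.93%, 15.3% and 15.2% at 72 h. Its neighbour HSP17.6II (AT5G12020), a class II cytosolic form, measured 0.960%, 1.28% and 4.15% at 0 h, 6.76%, 12.7% and 28.9% at 48 h and 3.47%, 9.20% and 7.42% at 72 h. These adjacent genes are related, and whether their probes read one another's transcripts was not tested.

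HSP23.6-MITO (AT4G25200), the mitochondrial form, measured 2.06%, 9.63% and 18% at 0 h, 18.1%, 50.2% and 115% at 48 h and 8.91%, 30.5% and 37.5% at 72 h. In all 4 genes 48 h was above 0 h and 72 h within every replicate number, but in 0 of the 4 did the 48 h arrays clear all 72 h arrays, since 48 h replicate 1 lay below 72 h replicate 2. Within a replicate number the group's median 72 h minus 48 h was -0.99, -0.67 and -1.79. All 6 small heat shock genes that the reference names had positive 48 h minus 0 h differences and negative 72 h minus 48 h ones. The non-members among them were ATHSP22.0, with 3.89 and -1.40 and above background on 8 arrays, and HSP17.4, with 2.88 and -0.66. The written list held 6 more loci that the reference gives no such name, and all 6 were called higher at 48 h. None of 16 large heat shock proteins and regulators was a member. Their medians were 1.05 at 48 h minus 0 h, with 9 called higher and 2 lower, and -0.29 at 72 h minus 48 h.

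**Figure D4:**
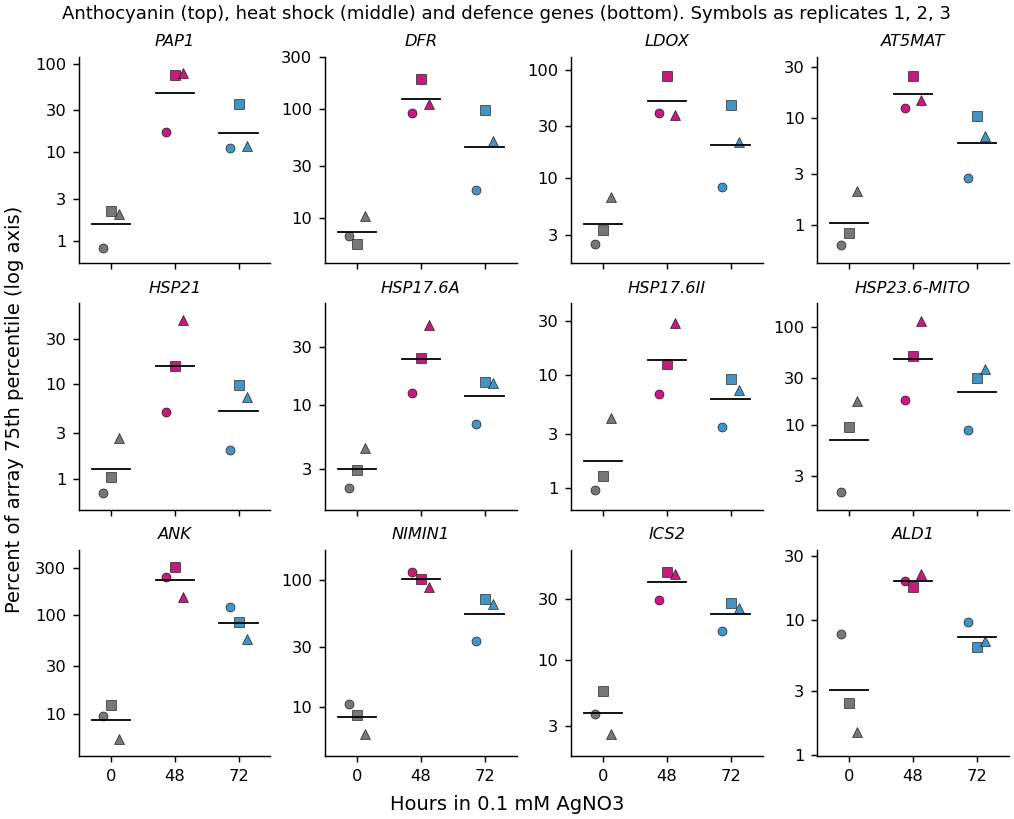
Signal in each array of 4 anthocyanin genes (top), 4 small heat shock genes (middle) and 4 defence genes (bottom), as percent of the array's 75th percentile on a log axis, against hours in silver nitrate. Circles, squares and triangles are replicates 1, 2 and 3 and lines are geometric means. The heat shock genes have circles lowest at every time, while the defence genes have 48 h points above all others.

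Starch and sugar genes formed a group of 9. They included 2 large subunits of ADP-glucose pyrophosphorylase, APL3 and APL4, which provide the sugar donor of starch, with GBSS1, which makes amylose, the debranching enzyme ISA3 and the plastid glucose 6-phosphate carrier GPT2. The others were the sugar carriers SWEET13 and SAG29 (SWEET15) and the galactinol synthases GolS4 and GolS7. The median of the 9 was 2.05 for 48 h minus 0 h and -1.07 for 72 h minus 48 h.

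GolS4 (AT1G60470), which makes the sugar donor of raffinose, measured 10.6%, 6.60% and 5.46% at 0 h, 143%, 148% and 228% at 48 h and 70.7%, 90.0% and 99.0% at 72 h. The 3 times did not overlap, and at 4.54 ± 0.28 its 48 h minus 0 h difference was among the largest of the members. GolS7 (AT1G60450), separated from it by 1 gene, measured 1.51%, 0.754% and 0.992% at 0 h, 2.72%, 32.3% and 36% at 48 h and 18.7%, 13.8% and 2.29% at 72 h. Replicate 1 was near its 0 h level at 48 h and high at 72 h, against the other replicates, and without 72 h replicate 3 its 72 h minus 48 h difference was 0.13 in place of -0.80. SAG29 (AT5G13170) measured 5.36%, 5.93% and 3.52% at 0 h, 42.1%, 161% and 33.7% at 48 h and 5.2%, 11.5% and 46.1% at 72 h. Here 72 h replicate 3 alone stayed at the 48 h level, while replicates 1 and 2 lay far below it.

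GBSS1 had means of 67.0% at 0 h, 245% at 48 h and 106% at 72 h. APL3 had 55.3% at 0 h, 193% at 48 h and 97.3% at 72 h. APL4 had 32.9% at 0 h, 91.9% at 48 h and 33.0% at 72 h, with no difference left at 72 h to the second decimal. ISA3 had 85.0% at 0 h, 183% at 48 h and 97.3% at 72 h, with all 48 h arrays above all others. GPT2 had 84.6% at 0 h, 515% at 48 h and 245% at 72 h and varied at 0 h from 21.6% in replicate 1 to 206% in replicate 2. SWEET13 had 9.59% at 0 h, 39.7% at 48 h and 18.1% at 72 h.

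Most starch genes were not called higher at 48 h. Of 23 starch genes, a list added after values were seen, 5 were called higher at 48 h, all of them members, and 6 were called lower. APL1, the main large subunit of leaves, fell by 1.45 at 48 h (adjusted p = 3.79e-04, limma), and SS4, which starts starch granules, fell by 1.22 (adjusted p = 0.00108). At 72 h against 0 h none of the 23 was called higher and 11 were called lower. For 72 h minus 48 h, 21 of the 23 had a negative difference, with a median of -0.41. Over the 18 that were not members the median was -0.34, beside -0.01 over all genes tested. Of 10 genes for sugar transport and cell wall invertase, SAG29 was the only member. MSS1 (STP13), a hexose importer, was higher by 2.71 ± 0.27 at 48 h and 3.57 ± 0.27 at 72 h, and ATBFRUCT1, a cell wall invertase, by 1.22 ± 0.27 and 1.89 ± 0.27.

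Genes of growth, cell wall and cuticle gave 12 members, with medians of 1.86 and -1.14. PRE5, a small helix-loop-helix protein that promotes elongation, had means of 2.27% at 0 h, 15.2% at 48 h and 5.57% at 72 h. The expansins EXPB3 and EXPA4, which loosen the wall, were higher by 1.78 and 1.55 at 48 h against 0 h and differed by -1.11 and -0.83 between 72 h and 48 h. Of 21 expansins tested, drawn by name after values were seen, 3 were called higher and 6 lower at 48 h, and 10 were called lower at 72 h than at 0 h. For 72 h minus 48 h, 17 of the 21 had a negative difference, with a median of -0.83. Over the 19 that were not members the median was -0.76, beside -0.01 over all genes tested. IAA5 (AT1G15580), an auxin-induced repressor of auxin response, measured 2.12%, 12.1% and 7.12% at 0 h, 9.45%, 40.5% and 17.1% at 48 h and 4.23%, 14.6% and 6.25% at 72 h. Replicate 1 was lowest and replicate 2 highest at every time, so the times overlapped while each replicate peaked at 48 h.

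Wall and cuticle enzymes spanned a wide range. CSLA10 and CSLG1, of the cellulose synthase-like families, were higher by 3.14 and 2.80 at 48 h. CDEF1, a cutinase, had means of 65.1% at 0 h, 274% at 48 h and 83.4% at 72 h. TBL26 and TBL19, of a family that acetylates wall polymers, had 72 h minus 48 h differences of -1.66 and -1.17. The peptide gene RGF9 and the factor OFP12 had 48 h minus 0 h differences of 1.93 and 1.18, and OFP12 was below its 0 h mean at 72 h, at -0.27.

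Abscisic acid and nutrient genes were few. RAB18 (AT5G66400), a dehydrin, measured 32.0%, 34.0% and 8.68% at 0 h, 75%, 90.9% and 54.4% at 48 h and 33.4%, 36.7% and 39.5% at 72 h. Its 0 h replicate 3 array was far below the other 0 h arrays, and all 72 h arrays were below all 48 h arrays. HAI3 (AT2G29380), a phosphatase that limits abscisic acid signalling, measured 4.01%, 2.22% and 2.09% at 0 h, 21.2%, 3.22% and 5.66% at 48 h and 3.16%, 1.25% and 5.35% at 72 h, so that its 48 h mean rests largely on replicate 1. The oil body protein OLEO4 had differences of 1.76 ± 0.43 for 48 h minus 0 h and -1.69 ± 0.43 for 72 h minus 48 h. Of 20 genes of abscisic acid and dehydration, 6 were called higher and 3 lower at 48 h. AHG1, RD20 and HAI1 remained higher at 72 h against 0 h, at 4.11 ± 0.81, 2.62 ± 0.58 and 1.25 ± 0.27, with AHG1 above background on 6 arrays. CYP707A3, which breaks down abscisic acid, fell by 3.67 at 48 h (adjusted p = 1.41e-05, limma).

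IRT1 (AT4G19690), the iron importer of the root surface, measured 7.81%, 3.48% and 2.45% at 0 h, 22.1%, 33.5% and 15.2% at 48 h and 4.99%, 8.08% and 19.3% at 72 h. In replicates 1 and 2 it was lower at 72 h than at 48 h, and in replicate 3 it was higher. A second probe for IRT1 was above background on 0 arrays. It was the only member among 14 iron genes. The iron-deficiency factors BHLH100, bHLH38 and bHLH39 were higher by 9.08 ± 0.88, 7.79 ± 0.50 and 6.61 ± 0.41 at 48 h and differed by -0.63, -0.47 and -0.31 between 72 h and 48 h, with BHLH100 above background on 8 arrays. SPX1 (AT5G20150), a phosphate sensor, measured 143%, 594% and 199% at 0 h, 690.2%, 792% and 579% at 48 h and 80.5%, 592% and 555% at 72 h. Its 0 h replicate 2 and its 72 h replicates 2 and 3 were all near the 48 h level. LSU4, of a family induced by lack of sulfur, had means of 5.2% at 0 h, 43.2% at 48 h and 23.7% at 72 h and was above all 0 h arrays at both later times.

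Among the other named members, ABCG40 (AT1G15520), an importer of abscisic acid, measured 3.15%, 33.4% and 37.0% at 0 h, 738%, 495% and 1311% at 48 h and 232%, 345% and 637% at 72 h. The 0 h replicate 1 array was far below replicates 2 and 3, and 72 h replicate 3 was above 48 h replicate 2. The differences were 5.64 ± 0.90 and -1.08 ± 0.90. MBP2 (AT1G52030), a myrosinase-binding protein, measured 4.62%, 36.6% and 61.2% at 0 h, 195%, 294% and 287% at 48 h and 92.6%, 248% and 126% at 72 h. JMT (AT1G19640), which methylates jasmonic acid, measured 3.67%, 6.79% and 4.76% at 0 h, 20.7%, 45.8% and 48.8% at 48 h and 7.36%, 43.0% and 11.6% at 72 h. In both, 72 h replicate 2 stayed close to 48 h replicate 2, while the other 72 h arrays lay lower.

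JMT was the only member among 18 jasmonate genes. The storage proteins VSP1 and VSP2 and the myrosinase-binding MBP1 were higher at 48 h by 3.49 ± 0.47, 3.38 ± 0.42 and 4.07 ± 0.86, and at 72 h against 0 h by 3.77 ± 0.47, 3.48 ± 0.42 and 3.42 ± 0.86. APX2 (AT3G09640), a stress-induced ascorbate peroxidase, measured 1.24%, 1.30% and 1.93% at 0 h, 1.74%, 6.10% and 11.0% at 48 h and 0.977%, 2.82% and 2.44% at 72 h. Replicate 1 had the smallest differences, 0.49 for 48 h minus 0 h and -0.84 for 72 h minus 48 h, and replicate 3 had the widest range. Of 20 genes of oxidative stress and detoxification, 2 were members, and AOX1D, CYP81D8 and GSTU25 were higher at 72 h against 0 h by 5.45 ± 0.47, 4.25 ± 0.37 and 4.05 ± 0.34, with 72 h minus 48 h differences above 0.

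A few more named members are given by their means. THAS1, the thalianol synthase of a triterpene gene cluster, had means of 240.4% at 0 h, 740.0% at 48 h and 224% at 72 h. DOX1, a fatty acid dioxygenase of defence, had 244% at 0 h, 738% at 48 h and 414% at 72 h. ESP, which steers glucosinolate breakdown to nitriles, had 188% at 0 h, 490.2% at 48 h and 274% at 72 h. MIOX1, an inositol oxygenase, was higher by 1.74 ± 0.23 at 48 h, and 0 of its 72 h arrays reached a 48 h array.

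The 47 members without a gene symbol had medians of 1.67 for 48 h minus 0 h and -1.03 for 72 h minus 48 h. AT3G02480 had the largest 48 h minus 0 h difference of all members, 7.71 ± 0.68, and measured 0.855%, 2.38% and 3.63% at 0 h, 327%, 633% and 329% at 48 h and 29.3%, 105% and 141% at 72 h. The 3 times were separate by wide margins, and 72 h stayed 5.28 ± 0.68 above 0 h. AT5G03350 measured 33.1%, 119% and 94.6% at 0 h, 714%, 882% and 717% at 48 h and 229%, 284% and 149% at 72 h, and AT4G28940 measured 106%, 64.9% and 59.0% at 0 h, 438%, 361% and 534% at 48 h and 142%, 109.9% and 77.6% at 72 h. In both, all 48 h arrays were above all others, and 48 h minus the higher of the other times was at least 1.62 in every replicate number. AT1G05700 and AT4G32950 ended below 0 h, with 72 h minus 0 h of -0.95 ± 0.58 and -0.79 ± 0.41.

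How much of the 48 h difference was left at 72 h varied between groups. As the ratio of the log2 differences, 72 h minus 0 h over 48 h minus 0 h, the median over all members was 40.5%, with 44 members under 25%, 42 over 50% and 17 below 0. It was 1.25% in the SAUR genes, 44.8% in starch and sugar genes, 60.5% in the 4 named heat shock genes, 62.9% in anthocyanin genes and 68.4% in defence genes. The SAUR range was -30.6% to 31.3%, and the defence range was 48.7% to 76.7%, so these did not overlap. Without 72 h replicate 1 the SAUR median was 27.1%, with a range of 1.62% to 50.6%. The defence median was then 60.8%, with a range of 37.7% to 84.2%, so that the ranges overlapped. Without that array the medians of starch and sugar genes, anthocyanin genes and the named heat shock genes were 63.8%, 75.6% and 77.2%. All of these were above the defence median. Without 48 h replicate 3 the heat shock median was 76.65% and the defence median 65.05%. The order of these groups thus depended on single arrays, while the SAUR median stayed below theirs with any 1 array left out. At 72 h, 45 members were within 0.5 log2 of 0 h, as were 59.2% of all loci. These ratios come from the values that chose the genes and have no test. The rule asks for a 72 h minus 48 h difference of at most -0.8, so a member with a small 48 h difference can have only a small share left. The counts and the order of the groups are thus partly set by the rule. The median 48 h minus 0 h was 3.88, 3.34 and 2.99 in anthocyanin, defence and heat shock genes, and 2.46 and 2.05 in SAUR and in starch and sugar genes.

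**Figure D5:**
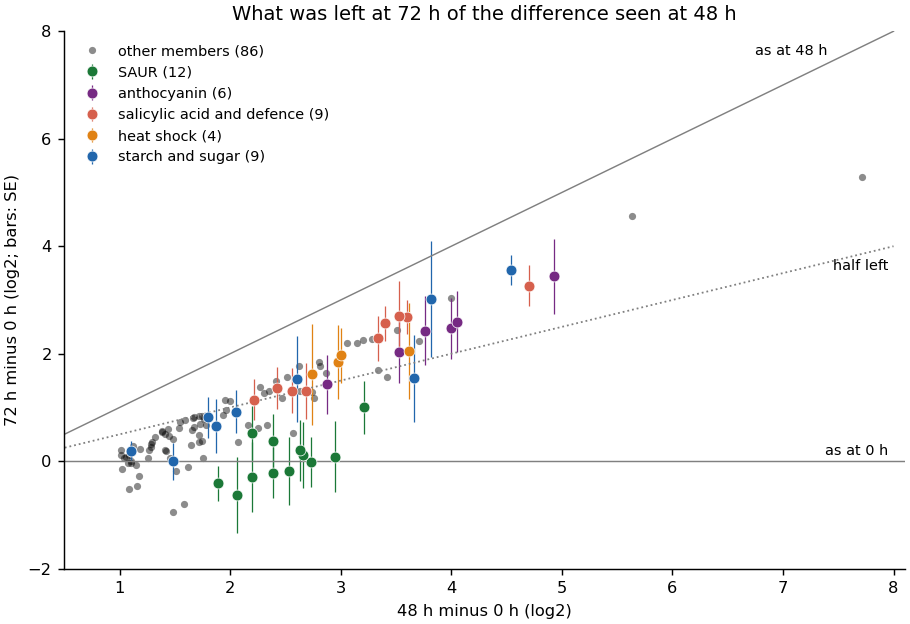
Log2 difference of 72 h minus 0 h (vertical, bars are SE) against 48 h minus 0 h (horizontal) for the 126 members, coloured by group. Points on the upper line would be as high at 72 h as at 48 h, and points on the zero line would be back at 0 h. The SAUR genes lie along the zero line between -0.63 and 1.00, and defence and anthocyanin genes lie above it.

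Position on the chromosomes was not used by the rule. Members lay on all chromosomes, from 0.485% of measured loci on chromosome 3 to 0.827% on chromosome 4. Direct neighbours among them were SAUR19, SAUR20 and SAUR21, SAUR22 and SAUR23, SAUR63, SAUR64 and SAUR65, HSP17.6II and HSP17.6A, LDOX and AT4G22870, and ESP and AT1G54050, by gene order in the RefSeq annotation TAIR10.1. The probes of the members were dim at 0 h, a level that enters the rule, with a median signal at 0 h of 7.14% of the 75th percentile, beside 84.8% over all loci. Their median SD between replicates was 0.56 log2 at 0 h, 0.45 at 48 h and 0.72 at 72 h, beside 0.26, 0.19 and 0.15 over all loci. By this median the members varied most at 72 h and all loci least. By the distance over the 9 arrays, which includes the differences the rule used, the loci nearest to HSP21 were HSP17.6II, AT1G53540, HSP17.6A and HSP23.6-MITO, at distances of 1.34 to 1.75, and those nearest to ICS2 were LUP5, AT4G03450, AT5G44570, LSU4 and NIMIN1 at 0.88 to 1.1.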

How the data were processed

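Gene expression was measured on 9 one-colour arrays, 3 at each time, and the labels gave the groups and replicate numbers. The authors deposited scanner output of every array, whose processed signal is an intensity written by Agilent Feature Extraction 9.5.3.1, per the submitters' processing notes. Per the file headers this signal is background subtracted and not scaled between arrays. The deposited value table holds a ratio on a linear scale whose scaling is not stated. Apart from 1 constant per array, its log2 values matched the scanner signals within 0.01 in 99.996% of cases, and it was used as an alternative only.

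Control spots and outlier spots were left out, and 0 spots were saturated. Repeated spots were averaged for each probe, and log2 signals were scaled to each array's 75th percentile. The number of arrays limits the precision. A locus was represented by its brightest probe, and symbols came from RefSeq (TAIR10.1). The 21042 genes whose 3 arrays were above background in 1 or more times were fitted with limma 3.58.1 in R 4.3.3 over all 9 arrays, with 1 mean per time, two-sided tests and Benjamini-Hochberg adjustment. Members were taken from the 19875 loci above background on all arrays. The rule and the fit were tested on simulated data.

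The members, the gene lists and the groups of members were chosen with earlier results of these data known. Lists for anthocyanin, starch, SAUR and expansin genes and the grouping of members were made after values were seen, and support nothing. Of 513 entries of the written lists, 22 were left out because the reference gives their locus another name or none. Every member could be named. All arrays are given for members with a symbol among the 12 largest 48 h minus 0 h differences, the 12 most negative 72 h minus 48 h ones and the 12 widest smallest margins of 48 h over both other times, and for members of lists. Outside the members the rule names up to 4 genes of each list that holds one, by the largest difference at 48 h, and genes beyond it were chosen after their values were seen. Alternatives were the scaling, the background correction, the deposited table, the filter, outlier spots, the thresholds, each array, each replicate number, the slide and a replicate block. The background alternative (normexp with an offset of 50) used the median signal of each spot, since the mean signal that had been planned was not used here. Replicate numbers paired the 48 h and 0 h arrays, since the deviations of all 3 same-numbered pairs correlated at 0.26 to 0.40. Each of these pairs was on 1 slide, so replicate number and slide cannot be told apart there. The main fit has no block, so its SE leaves this pairing out. For the 72 h arrays a pairing was not clear, with correlations of -0.01 to 0.21 with 0 h and -0.04 to 0.11 with 48 h.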

Additional observations from a re-analysis of the deposited data

How the results depend on the processing

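The number of loci that met the rule stayed within 1.5 times of 126 under median scaling (99, all members), quantile normalization (117, of which 116 members), normexp background correction (88, of which 87), the deposited value table (120, of which 106), probe means (126, all members) and outlier spots kept (128). It was 198 with probes above background at any 1 time, and 201 and 83 with a second threshold of -0.6 and -1. It was 364 within slide 1 and 144 within slide 2. With arrays or replicate numbers left out it ranged from 92 to 202. Of the 72 loci that the wider filter added, 3 were above background at 48 h only.

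Over the fixed 126 members, the median for 48 h minus 0 h was 1.97 with median scaling, 1.62 with normexp and 2.21 with the deposited table, against an SD between replicate numbers of 0.06, and 2.03 to 2.22 with arrays left out. Median scaling moved the median of all loci by -0.10 and the deposited table by 0.14 in this comparison, and the deposited table by 0.23 at 72 h minus 0 h. Within slide 1 the median was -1.63 for 72 h minus 48 h and 0.24 for 72 h minus 0 h. With arrays left out these were -1.36 to -0.91 and 0.59 to 1.04. No median changed sign.

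The number of genes called between 72 h and 48 h was 2 with median scaling, 3 with quantile normalization, 1 with normexp, 1 with the deposited table, 6 with a replicate block, and 0 to 7 with arrays left out. Among members, SAUR19 and SAUR23 were called, without 72 h replicate 1, at -2.09 and -1.86 (adjusted p = 0.0443 each, limma). For 48 h against 0 h the count was 2331 to 6972 and for 72 h against 0 h 3439 to 8437 with arrays left out; leaving out a whole replicate number leaves fewer arrays. The deposited table turned the split of calls to 3849 higher and 2613 lower at 48 h and to 5708 higher and 3047 lower at 72 h against 0 h, beside 2968 and 3330, and 3505 and 4123. The left-out replicate peaked at 48 h in 75.7% of chosen loci, pooled, with a range of 70.8% to 83.8%. Over 36 members with all arrays given, 686 of 756 values for 48 h minus 0 h kept their direction and their side of the threshold, 51 in 20 genes lost the call and 19 gained it. For 72 h minus 0 h, 22 values in 5 genes lost the call and 39 in 13 genes gained it. 3 values changed sign, all for GolS7 at 72 h minus 48 h: 0.44 with slide as a block, 0.13 without 72 h replicate 3 and 0.78 without replicate 3, within a range of -2.60 to 0.78 with arrays left out.

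Same-numbered arrays did not all deviate together in the pairs with 72 h (2 of 3 correlations over 0.1 with 0 h, 1 of 3 with 48 h), so there the block says nothing of a pairing. With a replicate block, 6744 genes were called at 48 h and 8140 at 72 h against 0 h, with 108 and 42 members among them. With slide as a block, 5978 genes were called at 72 h against 0 h. The promoter motif shares and the promoter window could not be run, because no sequence was used here. With 3 arrays at each time, dim probes and a median SD of 0.72 log2 at 72 h, the 72 h minus 48 h difference of a single member is imprecise, and its return to 0 h rests on group means.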

Other observations

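Probes without a locus name, designed on genome positions or expressed sequences, were not used in the comparisons. Of 2323 such probes above background on all arrays, 5 met the same thresholds, or 0.215%, beside 0.634% of loci.

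The opposite course was rarer. Of 1759 loci lower by at least 1 log2 at 48 h than at 0 h, 27 were higher again by at least 0.8 at 72 h, or 1.53%. Of 1565 loci higher by at least 1 at 48 h, the 126 members made up 8.05%.

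TT8, the helix-loop-helix partner of PAP1, ATHSP22.0 and the sugar carrier SWEET14 also met both thresholds, but their probes were above background on 8, 8 and 6 arrays.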
